A study of Mus musculus with 15 samples.

Results

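UCSF033_000542 and UCSF033_000543 are 2 of the 2500 probes of a custom microRNA array. They were chosen by their scaled signal in earlier results of these data, which was far higher in CD4 T cells rested to day 7 than in naive cells. That contrast, day 7 minus naive, is therefore given below as values without a test. MicroRNAs are short RNAs that guide Argonaute proteins to messenger RNAs and repress them through a short seed match. CD4 T cells leave quiescence, grow and divide when their antigen receptor and the costimulatory receptor CD28 are engaged, and the cytokine IL-2 keeps such cells alive once the stimulus is removed. The set of microRNAs in a T cell is known to change along this path. No file used here pairs either ID with a microRNA name or a sequence, so neither probe is named further and no sequence is shown.

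The series followed mouse CD4 T cells (strain C57/B6, aged 6 to 8 weeks) through activation in culture, rest and a second stimulation, with 50 ng of RNA per array. Cells were taken from spleen and lymph nodes with CD4-coated magnetic beads, and the labels give no further sort for the cells they call naive. The naive group has 2 arrays. Stimulation was with antibodies to CD3, part of the receptor complex, and to CD28, both bound to the plate, and each of 6, 12, 24, 42 and 65 h has 2 arrays. Cells taken off the antibodies after 65 h and rested in IL-2 until day 7 gave 1 array, and rested cells put back on the antibodies for 18 h gave 2 arrays. All 15 arrays carried bulk RNA, in which fewer cells of a kind and less RNA per cell cannot be told apart. Nothing in the labels tells whether the arrays within a condition hold RNA of different mice or cultures, and p-values therefore measure only array-to-array spread, which may be technical. With probes unnamed, the labelled cell type could not be checked against marker microRNAs here.

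The arrays lay on 2 slides, each with 1 array of every group except day 7, which was on slide 1. The first 42 h array, on slide 2, stood apart: 49.6% of its spots were marked as non-uniform, against at most 0.134% on each of the other 14, and its median spot brightness was 452 against 21 to 23. It was left out of the values below, and results with all 15 arrays stand beside them where they differ. On the 14 arrays 640 to 950 probes were detected, and 882 entered the test. Signals were divided by the 75th percentile of each array over the 571 probes detected on all 14, and a scaled level of 0 on the log2 scale means a signal equal to that percentile. The percentile itself was 1802 and 2668 in naive cells, 529 to 1166 on the arrays of 24, 42 and 65 h, 818 at day 7, and 509 and 1868 after restimulation, so unscaled and scaled signals can differ in order. Precision is limited throughout by the small number of arrays.

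Both probes were measured well above background on every one of the 14 arrays, in naive cells too. UCSF033_000542 had 7 spots per array and UCSF033_000543 had 6, and every one of these spots was flagged as well above background on each array. The mean background-subtracted signal of UCSF033_000542 lay between 23.0 and 3682, over a local background of 12.5 to 15. That of UCSF033_000543 lay between 22.3 and 3695. Spots of a probe on 1 array varied with a median coefficient of variation of 7.33% for UCSF033_000542 and 7.39% for UCSF033_000543, with a maximum of 13.3% and 14.1%. Only 1 spot of UCSF033_000542, on the day 7 array, was left out as an outlier.

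**Figure D1:**
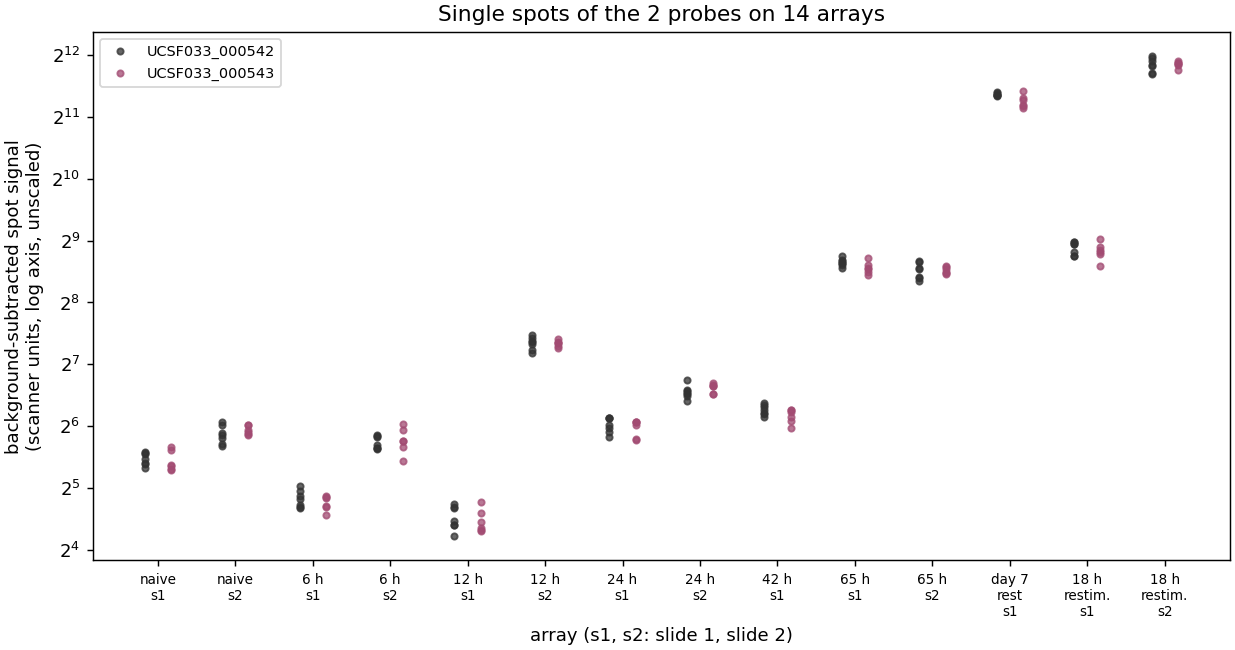
Background-subtracted signal of each spot of UCSF033_000542 (dark) and UCSF033_000543 (purple), in scanner units on a log axis and not scaled between arrays, for 14 arrays in order of condition and slide. Spots of 1 array lie close together, while the mean signal of UCSF033_000542 reaches 3682 on the slide 2 array of restimulated cells and is lowest, at 23.0, on the slide 1 array of 12 h.

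The 2 probes moved as a pair. Over the 14 arrays their scaled log2 signals correlated at r = 0.9998, and after each was centred on its own mean they differed by at most 0.10 log2 on any array. Both probes read the same RNA, scan and scaling on each array, and what each was designed against is not given in the files used here, so the pair is not counted as 2 independent observations. In the deposited value table, whose processing is unknown, the correlation was 0.9993 over the same 14 arrays.

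In naive cells UCSF033_000542 had scaled levels of -5.34 and -5.51 log2, a signal of 2.46% and 2.19% of the percentile. UCSF033_000543 had -5.37 and -5.44 log2. The naive arrays were close to each other: they differed by 0.17 and 0.07 log2 for the 2 probes, where the median distance over all 882 tested probes was 0.43.

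At 6 h no departure from the naive level passed the test. Here and below, differences from naive share the 2 naive arrays, which also took part in the contrast that chose the probes, and are not independent of that choice. UCSF033_000542 had -5.85 and -5.64 log2 on slides 1 and 2, just below both naive arrays (-5.34 and -5.51). Its difference from naive was -0.32 log2 (SE 0.56, limma adjusted p = 1, 95% interval -1.61 to 0.98). UCSF033_000543 had -5.92 and -5.60 log2 at 6 h, and a difference of -0.35 (SE 0.57, limma adjusted p = 1). Neither probe was called, where 0.113% of tested probes were higher at an adjusted p under 0.05. The interval reaches 0.98 log2 upward.

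At 12 h the 2 arrays disagreed. UCSF033_000542 was at -5.34 log2 on slide 1, level with the naive array of that slide (-5.34), and at -3.91 on slide 2, 1.60 above the naive array there. UCSF033_000543 was at -5.38 and -3.92 log2, with differences from naive of -0.01 on slide 1 and 1.53 on slide 2. The arrays of 12 h lay 1.43 and 1.47 log2 apart for the 2 probes, and 9.52% and 8.50% of tested probes were further apart. The mean difference from naive was 0.80 log2 for UCSF033_000542 (SE 0.56, limma adjusted p = 0.628) and 0.76 for UCSF033_000543 (SE 0.57, limma adjusted p = 0.647). Neither passed the test, where 0.794% of tested probes were called higher. The value of this time rests on 1 array: with the slide 2 array left out UCSF033_000542 stood 0.09 log2 above naive, and with the slide 1 array left out 1.52.

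At 24 h both arrays lay above both naive arrays, and close to each other. UCSF033_000542 had -3.81 and -3.63 log2, a signal of 7.15% and 8.06% of the percentile, and UCSF033_000543 had -3.86 and -3.57. The difference from naive was 1.71 log2 for UCSF033_000542 (SE 0.56, 95% interval 0.41 to 3.01), a 3.27-fold higher signal. Within slides it was 1.54 on slide 1 and 1.88 on slide 2. It was 1.70 for UCSF033_000543 (SE 0.57). After adjustment over the 882 probes neither passed (limma adjusted p = 0.0929 and 0.0994), while 7.37% of tested probes were called higher. With the slide as a block the adjusted p was 0.0619 and 0.0592, and with all 15 arrays both were 0.538, where 0.22% were called higher. Other treatments gave UCSF033_000542 a smaller difference: 0.62 log2 without scaling, and 0.76 with normexp on the median spot signal followed by quantile normalization. It was 1.58 after quantile normalization alone, 1.51 with the percentile over all probes and 1.19 in the authors' value table. None of these passed the test. Lying above every naive array was common at 24 h and held for 31.6% of tested probes.

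The means of the step from 6 h to 24 h used none of the arrays by which the probes were chosen. Its SE and p did, because the spread came from all groups of 2 arrays, the naive pair included. UCSF033_000542 was 2.03 log2 higher at 24 h than at 6 h (SE 0.56, limma adjusted p = 0.0951). Both slides gave much the same step, 2.05 on slide 1 and 2.01 on slide 2. UCSF033_000543 was 2.05 higher (SE 0.57, limma adjusted p = 0.0951). limma called 0 of the 882 probes for this step (0% higher), and 156 had an unadjusted p under 0.05. With the slide as a block both probes passed (limma adjusted p = 0.0480 and 0.0436), beside 9.86% of tested probes called higher in that fit. With all 15 arrays neither passed, without the block (limma adjusted p = 0.634 and 0.636) or with it (0.384 and 0.372).

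At 42 h the 2 probes rose above naive cells. On the single array kept, on slide 1, UCSF033_000542 was at -2.78 log2 and UCSF033_000543 at -2.88. UCSF033_000542 was 2.65 log2 above naive (SE 0.69, limma adjusted p = 0.0254; 1 array against 2), a 6.27-fold difference, and UCSF033_000543 2.53 above (SE 0.70, limma adjusted p = 0.0309). The spread of this single array was taken from the groups with 2 arrays. By comparison, 15.8% of tested probes were called higher. For both probes the call was lost without either naive array (limma adjusted p between 0.0769 and 0.111), and for UCSF033_000543 also without either 24 h array (0.0524). It was also lost with the percentile over all probes, with normexp on the median spot signal followed by quantile normalization, with no filter on dim probes, in the authors' value table and without scaling (limma adjusted p between 0.0673 and 0.834), and the unscaled size was 0.60 log2 for UCSF033_000542 and 0.48 for UCSF033_000543. The first 42 h array would have put them far higher: its scaled levels were 0.17 and 0.19 log2, and with all 15 arrays the differences from naive were 4.18 and 4.12 (limma adjusted p = 0.0149 and 0.0166), with 18.8% of tested probes called higher. In the authors' value table that array stood at 7.31 for UCSF033_000542, near the 7.63 of the second 42 h array, but its column followed the brightness in its scanner file at a Spearman correlation of only 0.459, against at least 0.999 on the other arrays.

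At 65 h both probes rose, and passed the test with 14 and with 15 arrays. UCSF033_000542 had -0.52 log2 on slide 1 and -1.62 on slide 2, a signal of 69.6% and 32.5% of the percentile, against 2.46% and 2.19% in naive cells. Both 65 h arrays lay above both naive arrays, as for 48.2% of tested probes. For UCSF033_000542 the rise was 20.5-fold, or 4.36 log2 (SE 0.56, n = 2 each, limma adjusted p = 0.000848). Each slide showed it, with 4.82 on slide 1 and 3.89 on slide 2. UCSF033_000543 had -0.61 and -1.61 log2 and was 4.30 above naive (SE 0.57, limma adjusted p = 0.000868), 19.6-fold. With all 15 arrays the differences were 4.26 and 4.20 (limma adjusted p = 0.0134 and 0.0154). Without scaling they were 2.91 and 2.85 and did not pass (limma adjusted p = 0.0978 and 0.109), and the smallest sizes, 2.55 and 2.49, came with normexp and quantile normalization. Of all tested probes 21.3% were called higher at 65 h (8.67% with all 15 arrays), and by size the 2 probes ranked in places 8 and 11 of 882. Under this scaling the middle of the 882 tested probes was itself shifted from naive, by 0.59 log2 at 65 h, 0.30 at 42 h, 0.25 at day 7 and 0.37 after restimulation, and the differences of the pair include that shift.

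The means of the step from 24 h to 65 h again used no array of the choice, but its SE and p drew on the naive pair. The rise of UCSF033_000542 was 6.26-fold, or 2.65 log2 (SE 0.56, limma adjusted p = 0.0264). The step was 3.28 within slide 1 and 2.01 within slide 2. UCSF033_000543 rose by 2.60 log2 (SE 0.57, limma adjusted p = 0.0283), and 5.67% of tested probes were called higher. With all 15 arrays the sizes were 2.57 and 2.53 and neither passed (limma adjusted p = 0.290 and 0.332), where 0.439% were called higher. Nor did they without scaling, with the percentile over all probes, with normexp and quantile normalization, with no filter or in the value table (limma adjusted p between 0.0508 and 0.783). The call was also lost for both without either naive or either 24 h array or without the slide 1 array of 65 h, and for UCSF033_000543 without either 6 h array (limma adjusted p up to 0.170 and 0.182).

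**Figure D2:**
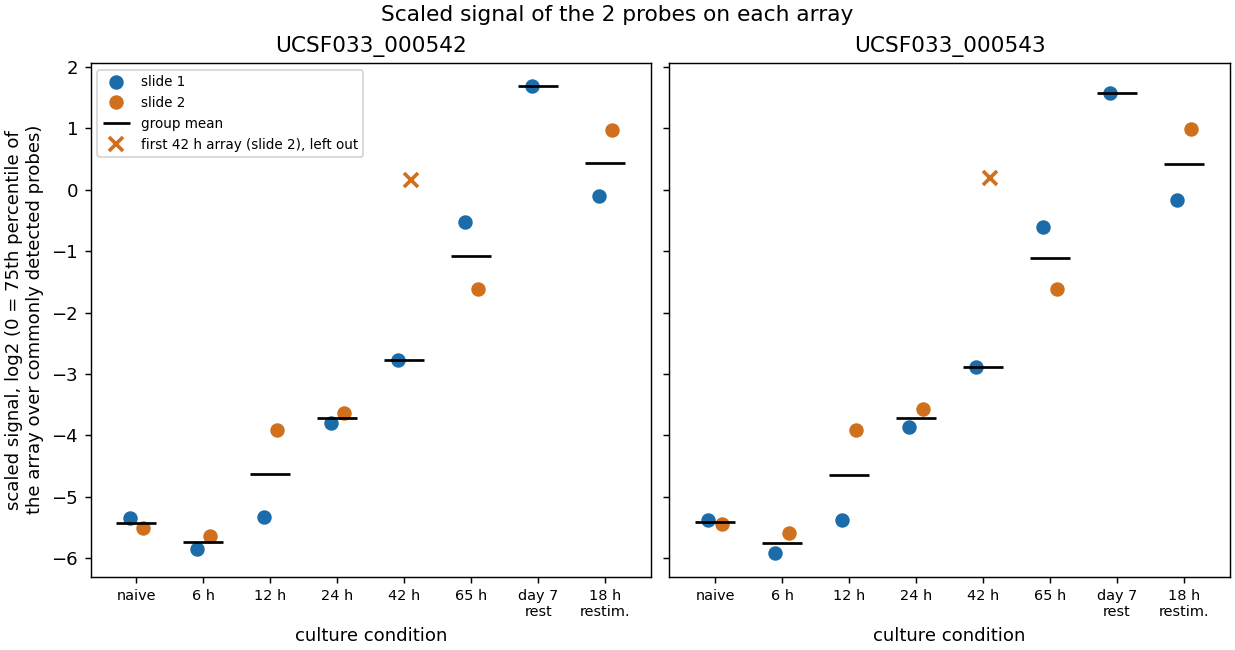
Scaled signal (log2, 0 being the 75th percentile of the array over commonly detected probes) of UCSF033_000542 (left) and UCSF033_000543 (right) on each array, by condition. Points are arrays, coloured by slide, lines are group means, and the cross is the first 42 h array, which was left out. Naive and 6 h arrays lie at -5.34 or below, the 12 h arrays split, and the day 7 array is highest at 1.68 for UCSF033_000542 and 1.58 for UCSF033_000543.

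The time of leaving the naive level depends on what is asked of the data. The earliest time at which every array, then and later, lay above every naive array was 24 h for UCSF033_000543 and nominally 12 h for UCSF033_000542. That 12 h rests on a margin of 0.00445 log2 on slide 1, and with all 15 arrays or in the value table it was 24 h for both. Every array of a condition lay above every naive array for 17.9% of tested probes at 12 h, 51.2% at 42 h, 49.9% at day 7 and 42.7% after restimulation. The earliest time past the test, with 65 h and restimulation also past it, was 42 h for both probes in the fit with 14 arrays. The fit with all 15 arrays also gave 42 h, but it holds the first 42 h array, left out for its bright and non-uniform spots. In that fit the median of all tested probes at 42 h was itself 1.17 log2 above naive. The time was 65 h in the value table and without either naive array, and for UCSF033_000543 also without either 24 h array. It was also 65 h with the percentile over all probes, with normexp and quantile normalization, and with no filter on dim probes. Without scaling no time passed with all later ones. Detection gave no time, because the probes were above background on all 14 arrays from the start.

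On the array of cells rested in IL-2 both probes had their highest scaled level, which is what they were chosen for and is given as a description. The single day 7 array had 1.68 log2 for UCSF033_000542 and 1.58 for UCSF033_000543, a signal of 321% and 298% of the percentile. Against naive cells this was 7.11 log2 (SE 0.69) for UCSF033_000542 and 6.99 (SE 0.70) for UCSF033_000543, differences of 138-fold and 127-fold. Among the 882 tested probes these were places 1 and 2, and the probe in place 3 was 5.70 log2 above naive. Within slide 1 UCSF033_000542 was 7.03 above the naive array.

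From 65 h to day 7, off the antibodies, the signal was higher still. UCSF033_000542 was at 1.68 log2 on the day 7 array, against -0.52 and -1.62 on the 65 h arrays, a mean difference of 2.76 log2 (SE 0.69) and 2.21 within slide 1. UCSF033_000543 differed by 2.69 log2 (SE 0.70). The day 7 array, which took part in the choice of the probes, lay above both 65 h arrays for both. The share of tested probes with this order was not counted. Places 3 and 5 of 882 by size went to the 2 probes in this comparison, which holds the day 7 array and carries no test here.

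Restimulation for 18 h left the signal far above naive cells. UCSF033_000542 had -0.11 log2 on slide 1 and 0.98 on slide 2, against -5.34 and -5.51 in naive cells. UCSF033_000542 was 5.86 log2 above naive, a 58.3-fold higher signal (SE 0.56, limma adjusted p = 0.000303, n = 2 each). Slide 1 gave 5.24 and slide 2 gave 6.49. UCSF033_000543 was 5.82 log2 above naive (SE 0.57, limma adjusted p = 0.000326), 56.5-fold. With all 15 arrays the sizes were 5.90 and 5.85 (limma adjusted p = 0.00467 for both). The sizes were smaller, but still passed, without scaling (4.70 and 4.65), in the authors' value table (4.82 and 4.73) and with normexp and quantile normalization (4.01 and 3.97). Of all tested probes 25.9% were called higher (9.66% with all 15 arrays), and the 2 probes held places 4 and 5 of 882 by size.

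Both restimulated arrays lay below the day 7 array. The pair was chosen for its height on that single array, so lower levels elsewhere are partly given by the choice. How many tested probes had the same order was not counted. For UCSF033_000542 the difference from day 7 was -1.25 log2 (SE 0.69, values only), with -0.11 and 0.98 on the restimulated arrays against 1.68 on the day 7 array. For UCSF033_000543 it was -1.16 (SE 0.70), with -0.16 and 0.98 against 1.58. Within slide 1 the differences were -1.79 and -1.74. Before scaling 1 of the 2 restimulated arrays, that of slide 2, was brighter than the day 7 array, at 3682 and 3695 for the 2 probes, and the other was dimmer, at 473 and 456, against 2630 and 2442 at day 7. The unscaled mean difference from day 7 was -0.996 and -0.912 log2.

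Restimulated cells were also set against primary activation, with no array of the choice in the means of either comparison. The SE and p again drew on the naive pair through the shared spread. Against 24 h, UCSF033_000542 was 4.16 log2 higher after 18 h of restimulation (SE 0.56, limma adjusted p = 0.00351), 17.8-fold, and UCSF033_000543 4.12 higher (SE 0.57, limma adjusted p = 0.00366). Of all tested probes 7.14% were called higher. With all 15 arrays the sizes were 4.21 and 4.18 and neither passed (limma adjusted p = 0.0687 and 0.0731), where 0.439% were called higher, nor did they without scaling (0.112 and 0.121). Against 65 h the restimulated arrays were higher by 1.51 log2 for UCSF033_000542 (SE 0.56, limma adjusted p = 0.338, 95% interval 0.21 to 2.81) and by 1.53 for UCSF033_000543 (SE 0.57, limma adjusted p = 0.338). Neither passed, where 0.113% of tested probes were called higher. The slides differed here, with 0.42 on slide 1 and 2.60 on slide 2 for UCSF033_000542.

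**Figure D3:**
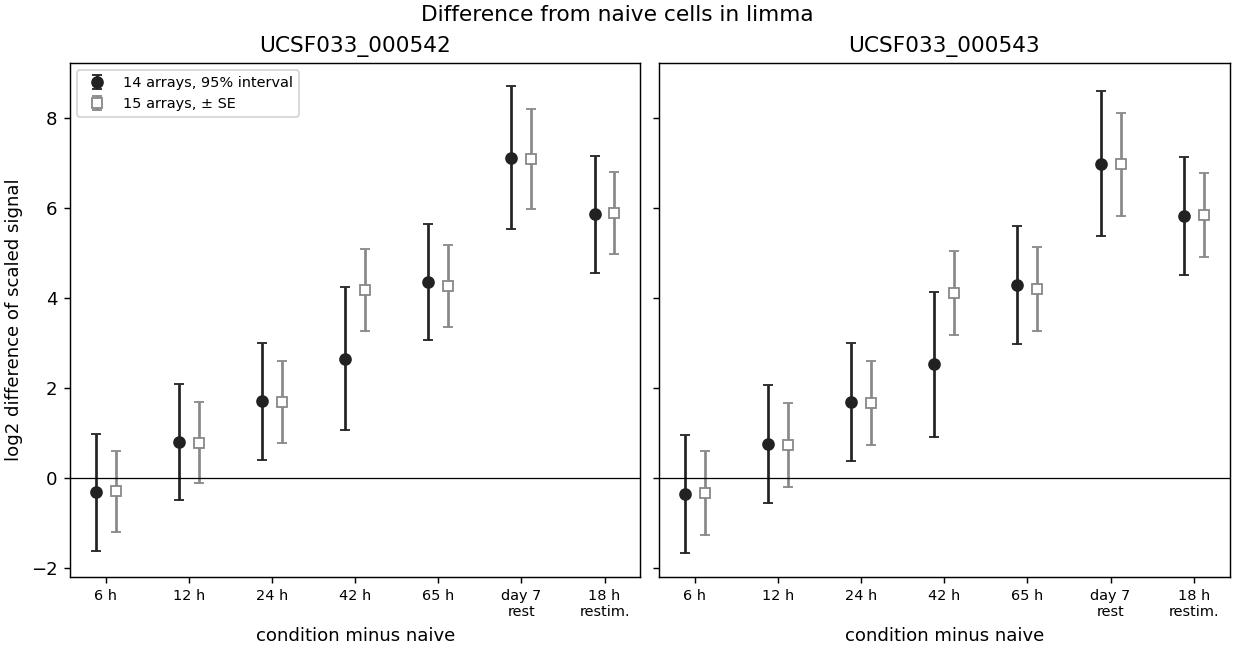
Log2 difference of scaled signal from naive cells for UCSF033_000542 (left) and UCSF033_000543 (right) in limma. Filled points are the fit of 14 arrays with 95% intervals and open squares the fit of all 15 arrays ± SE. For cells rested in IL-2 an interval is not to be read as a test, because that difference from naive chose the probes. For both probes the 14-array intervals at 6 and 12 h reach below 0, and the fits part most at 42 h (2.65 against 4.18 for UCSF033_000542).

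In ascending order of mean scaled level, UCSF033_000542 ran 6 h (-5.75 ± 0.15), naive (-5.43 ± 0.12), 12 h (-4.62 ± 1.01), 24 h (-3.72 ± 0.12), 42 h (-2.78, 1 array), 65 h (-1.07 ± 0.78), restimulated (0.44 ± 0.77) and day 7 (1.68, 1 array), as log2 values ± SD with n = 2 unless stated. UCSF033_000543 had the same order, from -5.76 ± 0.23 at 6 h to 1.58 at day 7. The differences of 6, 12 and 24 h from naive did not pass the test. On slide 1 the array of 12 h stood level with the naive one. Steps between 12, 24 and 42 h were not tested. Those from 6 h to 24 h, in the fit by group alone, and from 65 h to restimulation did not pass. Every array of 65 h, day 7 and restimulation lay above every other array for both probes, as for 60 of the 882 tested probes (6.8%). This holds for the 14 arrays, since the first 42 h array, at 0.17 and 0.19 log2, lay above both 65 h arrays and the slide 1 array of restimulated cells. Part of the order came with the choice of the pair, which set the day 7 array far above the naive arrays. The share of 6.8% is therefore not a like comparison for them.

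Among 797 other tested probes above the floor on at least 7 of the 14 arrays, UCSF033_000949 and UCSF033_000815 followed the pair most closely. Their Pearson correlation with the mean of the pair was 0.93 for each over 14 arrays, which share scaling and slides, and the median of the 797 was 0.35. The 14 arrays include the naive and day 7 arrays that chose the pair, so the ranking is not independent of that choice. In all 16 probes had a correlation over 0.9. The most similar probes parted from the pair early: at 24 h UCSF033_000949 was 0.20 and UCSF033_000815 0.10 log2 from naive, against 1.71 and 1.70 for the pair. From 42 h on they were above naive as well, by 1.62 and 1.85 log2 at 42 h and by 3.91 and 5.21 at day 7 (values only). Spearman's rho was 0.83 for UCSF033_000949 and 0.81 for UCSF033_000815. UCSF033_000815 was dim early, at -6.54 log2 or lower from naive to 24 h and at the floor on the slide 2 array of 12 h. It was detected on 12 of the 14 arrays, so its small early differences are less certain.

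The most opposite probes were UCSF033_001298 (r = -0.96) and UCSF033_000733 (r = -0.95), and 9 probes lay under -0.9. UCSF033_001298 was at 0.50 and 0.03 log2 in naive cells, at -6.00 on the day 7 array, and near or at the floor after restimulation. UCSF033_000733 was detected on 9 of the 14 arrays and lay at -7.16 log2 or lower, near or at the floor, on every array of 65 h and later. No microRNA name was given to these 4 probes, and no shared function or control is implied.

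**Figure D4:**
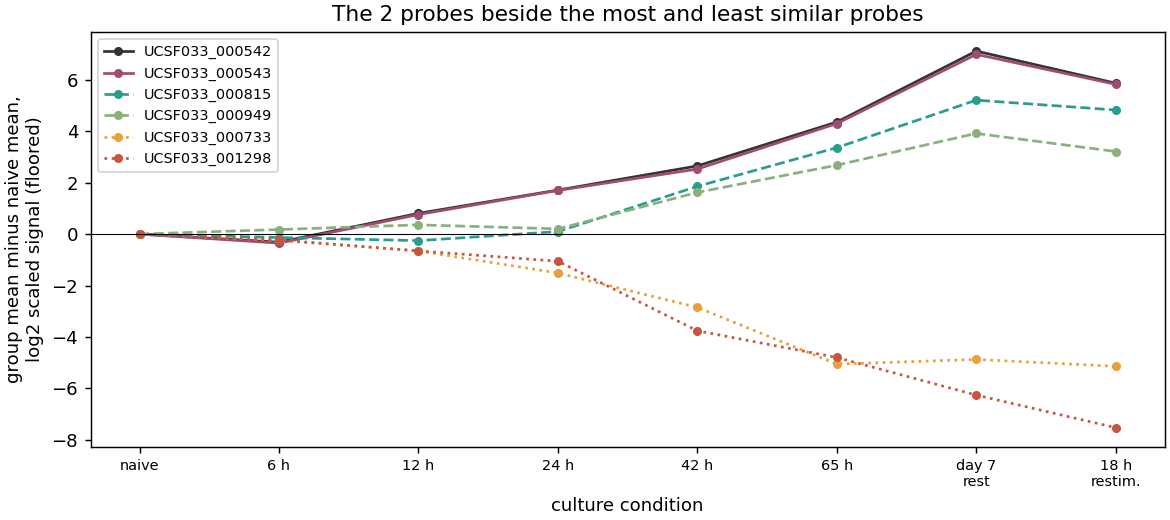
Group mean minus naive mean (log2 scaled signal, floored) of the 2 probes (solid), the most similar (dashed) and the most opposite probes (dotted) by condition. The pair stands 1.71 and 1.70 above naive at 24 h, where the dashed lines are at 0.20 or less.

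Under 6 treatments of the array signal UCSF033_000542 was highest at day 7, but the size of its differences varied. At 65 h the difference of UCSF033_000542 from naive was 4.36 log2 as reported, 4.12 after quantile normalization, 3.66 with the percentile over all probes, 3.19 in the authors' value table, 2.91 without scaling and 2.55 with normexp on the median spot signal followed by quantile normalization, which changes several steps at once. All but the unscaled value passed the test (limma adjusted p = 0.0978 without scaling). At day 7, given as values only, the same treatments gave 7.11, 6.75, 6.61, 5.98, 5.69 and 5.17.

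**Figure D5:**
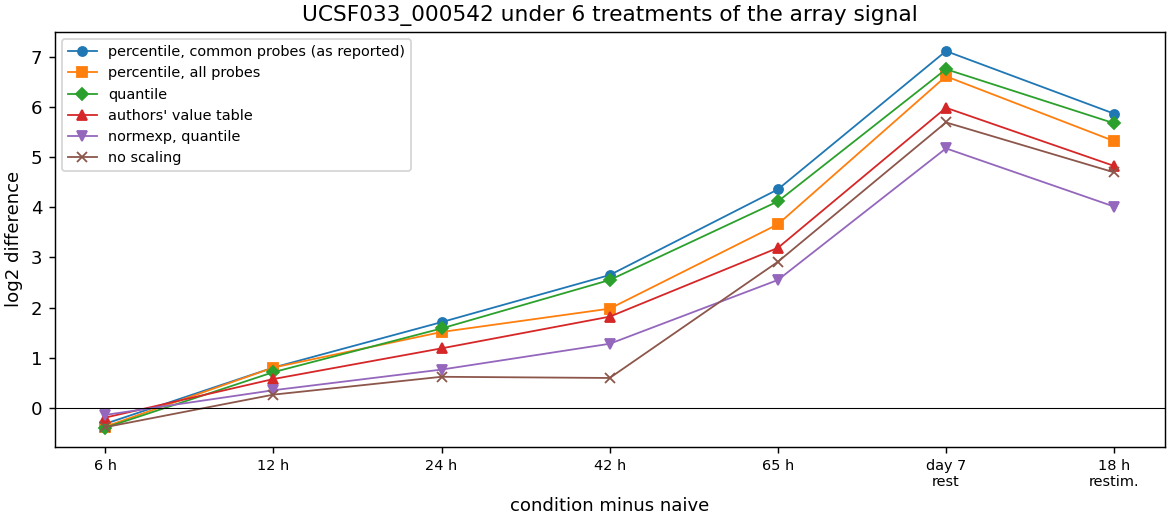
Log2 difference of UCSF033_000542 from naive cells by condition, with 1 line for each of 6 treatments of the array signal. Every line is highest at day 7, from 5.17 to 7.11, and only the unscaled line does not go up between 24 h (0.62) and 42 h (0.60).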

How the data were processed

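Total RNA from mouse CD4 T cells was labelled with Cy3 and hybridised to one-colour Agilent arrays, per the labels. The deposited scanner files hold the intensity of 15665 spots per array, background-subtracted, per the file headers, by Feature Extraction 10.1.1.1 (the submitters' processing notes name 10.6). A value table, also deposited, covers 2191 of the 2500 probes in log2 units. The steps by which the authors made it are not given in the sources used here. Its column medians lay between 4.38 and 4.41, its ranks followed the median spot brightness on 14 arrays but not on the first 42 h array, and its scale and centring stay unknown. Flags for outliers and for signal well above background, read as other values of 0 or 1, are deposited with each spot.

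Control and outlier spots were left out and the spots of a probe averaged. Each array was divided by its 75th percentile over commonly detected probes, floored at 0.583% of it (the 5th percentile of detected values), and taken to log2. Detection asked that over 50% of a probe's spots stand well above background. A probe was tested when detected on all arrays of a group of 2. limma 3.58.1 (lmFit, eBayes, R 4.3.3) was fitted to 882 probes on 14 arrays with group as the only term and 6 residual degrees of freedom. P-values were adjusted by Benjamini-Hochberg within each comparison over all tested probes, at 0.05. The fit of all 15 arrays tested 911 probes. Slides were read as batches, given as a block and within slides. The procedure was tested on simulated data, but neither settings nor outcome are given, so this carries no weight here.

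The members, comparisons and alternatives were chosen with earlier results of these data known. The first 42 h array was left out for its non-uniform, bright spots. Comparisons that hold the day 7 array, which chose the members together with the naive arrays, carry no test. Differences of the other conditions from naive were tested, but are not independent of that choice. The named probes besides the members are those with the 2 highest and 2 lowest correlations with them over 14 arrays.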

Additional observations from a re-analysis of the deposited data

How the results depend on the processing

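Of 820 values refitted or recomputed under alternatives, 731 stayed, 50 kept direction and lost the call, 2 gained it, 37 moved and 0 reversed. Staying meant the same side of the threshold or, without a test, the same time or a set spread. For day 7 minus naive that was the spread of the naive arrays, and for the other comparisons holding day 7 it was wider. For UCSF033_000542, day 7 minus 65 h counted as staying from 2.21 to 3.31 when 1 array was left out. Restimulated minus day 7 did so from -1.79 to -0.71. Of 44 differences within 1 slide, which carry no test, 43 kept their sign, and that of UCSF033_000543 at 12 h on slide 1 turned it, at -0.0108 log2 against 0.76. The call at 42 h was lost with the percentile over all probes (1.98 log2 for UCSF033_000542 and 1.86 for UCSF033_000543), without scaling (0.60 and 0.48), with normexp on the median spot signal followed by quantile normalization, called normexp from here on (1.28 and 1.18), in the value table (1.82 and 1.64) and with no filter on dim probes (2.65 and 2.53, more probes being tested). The call at 65 h was lost without scaling (2.91 and 2.85). For 65 h minus 24 h it was lost with all 15 arrays, with or without the slide block (2.57 and 2.53), with the percentile over all probes (2.15 and 2.10), without scaling (2.29 and 2.24), with normexp (1.79 and 1.71), with no filter (2.65 and 2.60) and in the value table (2.002 and 1.92). For restimulated minus 24 h it was lost with all 15 arrays, with or without the slide block (4.21 and 4.18), and without scaling (4.08 and 4.04). With the slide as a block 24 h minus 6 h gained the call (2.03 and 2.05). Day 7 minus naive moved by more than the spread of the naive arrays with the percentile over all probes (6.61 and 6.48), quantile normalization (6.75 and 6.58), no scaling (5.69 and 5.56), normexp (5.17 and 5.13), the slide block (7.25 and 7.17, at 15 arrays 7.41 and 7.33) and the value table (5.98 and 5.90). The cause was not tested where none is named.

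Leaving out 1 array at a time gave 2.56 to 2.73 for UCSF033_000542 and 2.49 to 2.56 for UCSF033_000543 at 42 h, and 2.10 to 3.20 and 2.10 to 3.10 for 65 h minus 24 h. The first time past the test was 42 to 65 h under these omissions, and 65 h with the percentile over all probes, normexp, no filter and the value table. Without scaling no time passed with all later ones. The first time with all arrays above naive was 12 to 24 h when 1 array was left out. For UCSF033_000542 it was 24 h with all 15 arrays, the first 42 h array in place of the second, the percentile over all probes, no scaling, normexp, the median of spots and the value table. The labels mark 1 array of each group of 2 as a replicate, but do not say which arrays of different groups belong together. That mark does not follow the slide: the unmarked array was on slide 1 in naive cells and on slide 2 at 65 h. Arrays were paired only through their slide, as a block and within slides. The fit of all 15 arrays with the slide block was chosen after seeing the data.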
